A study of Homo sapiens with 12 samples.

Results

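The 10 genes described here encode transcription factors of the ETS family whose activity or expression is tied to the kinase ERK. They are the PEA3 group genes ETV1, ETV4 and ETV5, the pair ETS1 and ETS2, the ternary complex factor genes ELK1, ELK3 and ELK4, and the repressor genes ETV6 and ERF. The members were named by gene symbol for their known place in ERK signaling, with earlier results of these data known, and no threshold on a measured value was used. They are 10 of the 58347 genes in the count files, and all 10 were among the 16740 genes that passed the filter on low counts. RNA sequencing (RNA-seq) was performed on A375 cells, an established line derived from a human melanoma that carries an activating BRAF mutation. The cells received DMSO as vehicle control, tretinoin, vemurafenib or the vemurafenib + tretinoin combination for 8 h, with 3 replicates per group and 12 libraries in all. The labels list a treatment dose of 5 µM for every group, the vehicle included, and do not say how it was divided in the combination. Vemurafenib inhibits mutant BRAF, which drives ERK through MEK, and tretinoin is all-trans retinoic acid, the ligand of the retinoic acid receptors. The comparisons ask how the ETS factors at the end of the inhibited pathway responded to each drug and whether tretinoin altered the response to vemurafenib.

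ETS factors share a DNA-binding domain, the ETS domain, that recognizes a GGAA core. PEA3 group genes are transcribed downstream of ERK, in part because ERK relieves their repression by CIC, a DNA-binding repressor, while the ubiquitin ligase COP1 marks their proteins for degradation. Ternary complex factors sit beside serum response factor (SRF) on immediate early genes such as FOS and EGR1 and activate them when ERK phosphorylates them. ETS1 and ETS2 are also activated by ERK phosphorylation, whereas ERF leaves the nucleus when ERK phosphorylates it. RNA-seq counts report transcripts only and carry no information on these phosphorylations.

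The libraries held between 13510235 and 21534377 counted fragments. Tretinoin replicate 1 had the lowest total and stood furthest from its group, with a chi-square per degree of freedom of 19.1 and 21.8 against the other tretinoin libraries and at most 8.38 in any other pair of replicates, so results that rest on tretinoin are also given without it where the call changed. Of 7 melanocyte markers, SOX10 was listed with 0 counts in all 12 libraries, TYR, MLANA and DCT had too few counts to test, and MITF, the melanocyte master regulator, was present at 242 to 598 normalized counts. The summed level of the 7 markers was 468 to 557 normalized counts with DMSO, 434 to 517 with tretinoin, 761 to 796 with vemurafenib and 686 to 713 with the combination. Most of the higher sum was MITF, with means of 318 in DMSO, 585 with vemurafenib and 493 with the combination. In the same groups S100B had means of 164, 167 and 174, and PMEL of 20.9, 14.3 and 15.5. Of the 3 markers tested, 1 was called higher and 0 lower with vemurafenib, and likewise with the combination. Of 5 markers of epithelial, immune, endothelial, keratinocyte and stromal cells, EPCAM reached at most 7 counts, PTPRC was called higher in each treatment group than in DMSO, and the summed level was 80.1 to 151 with DMSO, 91.1 to 197 with tretinoin, 150 to 174 with vemurafenib and 117 to 172 with the combination. The part of these markers in the results was not tested. Whether the 0 counts of SOX10, whose exons share 2.4% of their bases with POLR2F on the opposite strand, come from the cells or from the counting was not tested.

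In the files each gene is named by its Ensembl identifier, and positions are from the GENCODE 29 annotation of build GRCh38. ETV1 (ENSG00000006468.13) lies at chr7:13891228-13991425, ETV4 (ENSG00000175832.12) at chr17:43527844-43579620 and ETV5 (ENSG00000244405.7) at chr3:186046308-186110318. ETS1 (ENSG00000134954.14) lies at chr11:128458761-128587558 and ETS2 (ENSG00000157557.11) at chr21:38805307-38824955. ELK1 (ENSG00000126767.17) lies at chrX:47635521-47650604, ELK3 (ENSG00000111145.7) at chr12:96194382-96269835 and ELK4 (ENSG00000158711.13) at chr1:205597556-205631962. ETV6 (ENSG00000139083.10) lies at chr12:11649854-11895402 and ERF (ENSG00000105722.9) at chr19:42247572-42255157. ETS2, ELK3 and ETV6 are on the plus strand and the other members on the minus strand, and the counts cover all annotated exons of each gene.

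Promoter sequences were read for the members that the results turn on and that have an entry in the RefSeq table of build GRCh38.p14, each running from 250 bases before to 50 bases after an annotated start. Of the 10 members, 7 had at least 1 entry (16 entries in all), and ETV4, ETV5 and ETS1 had none. The ETV1 entry shown, at chr7:13991376-13991675 (minus strand), was the only 1 of that gene's 6 entries with a CIC motif. The others shown are ELK3 at chr12:96194125-96194424 (plus strand), the ternary complex factor gene that fell most, and ELK4 at chr1:205631962-205632261 (minus strand), with an ETS motif. The last is ETS2 at chr21:38804933-38805232 (plus strand), the member that rose with the combination. Each entry is written 5′ to 3′ on the strand of its gene, and capitals mark the motif found.
ETV1: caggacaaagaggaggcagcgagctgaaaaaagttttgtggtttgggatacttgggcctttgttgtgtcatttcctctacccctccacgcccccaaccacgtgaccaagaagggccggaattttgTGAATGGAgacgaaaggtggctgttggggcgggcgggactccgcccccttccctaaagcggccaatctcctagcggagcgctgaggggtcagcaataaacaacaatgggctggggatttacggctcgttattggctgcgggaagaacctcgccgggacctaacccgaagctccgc
ELK3: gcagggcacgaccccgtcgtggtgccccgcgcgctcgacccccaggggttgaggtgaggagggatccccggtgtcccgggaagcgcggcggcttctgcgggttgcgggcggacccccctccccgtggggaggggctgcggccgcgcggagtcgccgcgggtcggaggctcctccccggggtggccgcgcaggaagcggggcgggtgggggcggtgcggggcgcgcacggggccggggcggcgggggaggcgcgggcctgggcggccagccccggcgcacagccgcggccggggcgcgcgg
ELK4: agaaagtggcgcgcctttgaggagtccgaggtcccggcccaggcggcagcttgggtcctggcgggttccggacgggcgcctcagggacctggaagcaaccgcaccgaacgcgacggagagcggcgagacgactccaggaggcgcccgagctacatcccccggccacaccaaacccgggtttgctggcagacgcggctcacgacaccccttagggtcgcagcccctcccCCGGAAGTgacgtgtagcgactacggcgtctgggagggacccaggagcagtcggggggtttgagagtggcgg
ETS2: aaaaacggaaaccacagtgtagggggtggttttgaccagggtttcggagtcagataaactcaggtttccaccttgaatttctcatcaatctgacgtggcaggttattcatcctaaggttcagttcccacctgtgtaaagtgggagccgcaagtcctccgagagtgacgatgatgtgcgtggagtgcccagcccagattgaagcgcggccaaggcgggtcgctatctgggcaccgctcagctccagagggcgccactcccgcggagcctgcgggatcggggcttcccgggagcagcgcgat
Both strands were searched for the octamers TGAATGAA and TGAATGGA as CIC motifs, the ETS site CCGGAAGT, the AP-1 site TGACTCA, the cyclic AMP response element TGACGTCA and the CArG box that SRF binds. Other forms of the CIC site were not searched for. The ETV1 entry shown held TGAATGGA with its leading base 125 bases before the start, and the other ETV1 entries held none of these motifs. TGAATGGA was found in 1.03% of the 35116 promoters of the table, a rate per promoter, whereas ETV1 had 6 entries. The ELK4 entry held CCGGAAGT with its leading base 22 bases before the start, a motif found in 4.14% of all promoters. No match overlapped another, and none of the other 4 motifs, found in 1.65%, 4.95%, 1.85% and 1.29% of promoters respectively, occurred in the 16 entries. These matches describe letters in a window and are not evidence of binding.

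In DMSO-treated cells, ETV4 had the highest level per length of the 10 members and the PEA3 group the highest summed level of the 4 classes. In FPKM computed from the TMM-normalized counts, which scale fragments by exon length and library size, ETV4 stood at 53.6 ± 1.98 (SD, n = 3) and ERF at 41.2 ± 0.755. ELK1 (25.0 ± 0.526), ETS1 (21.8 ± 2.80), ELK3 (21.1 ± 1.88) and ETV5 (12.3 ± 0.804) came next. The lowest levels per length were those of ETS2 (6.42 ± 1.19), ELK4 (5.11 ± 0.411), ETV1 (2.53 ± 0.222) and ETV6 (2.11 ± 0.240). The replicates of ETS1 and ELK3, of ETS2 and ELK4 and of ETV1 and ETV6 overlapped, so the order within these 3 pairs is not resolved. With vemurafenib the order began with ERF (39.9 ± 1.59), ELK1 (20.8 ± 0.583) and ETS1 (17.2 ± 0.462) and ended with ETV1 (0.789 ± 0.0427) and ETV5 (0.482 ± 0.0210). No neighbors in the vemurafenib order overlapped, and ETV4 had moved from the top to the fourth place at 7.90 ± 0.249. Tretinoin left ETV4 (50.8 ± 0.328) and ERF (34.9 ± 1.03) at the top, with ELK1 overlapping ELK3, ETS2 overlapping ELK4 and ETV6 overlapping ETV1 further down. In the combination ETS2 (10.2 ± 0.829) stood above ETV4 (8.47 ± 0.945), with no overlap between their replicates.

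Summed per length, the PEA3 group held 35.8% ± 0.273 of the 10 members' level in DMSO, 36.0% ± 0.781 with tretinoin, 8.71% ± 0.0619 with vemurafenib and 10.1% ± 0.392 with the combination (mean ± SD, n = 3). The group's summed level was 68.5 ± 1.37 in DMSO and 9.17 ± 0.262 with vemurafenib. The ternary complex factors summed to 51.2 ± 2.70 and 30.9 ± 1.01 in the same groups, ETS1 and ETS2 to 28.2 ± 3.82 and 23.9 ± 0.414, and the repressors to 43.3 ± 0.625 and 41.3 ± 1.64. In the 3 vemurafenib libraries the repressors therefore had the highest summed level of the 4 classes, with a share of 39.2% ± 0.751 against 22.7% ± 0.884 in DMSO. Within the PEA3 group, ETV4 made up 78.3% ± 1.37 of the level in DMSO and 86.1% ± 0.426 with vemurafenib, ETV5 made up 18% ± 1.42 and 5.26% ± 0.378, and ETV1 made up 3.70% ± 0.352 and 8.60% ± 0.296. The shares of a sum are bound to each other and were not tested.

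**Figure D1:**
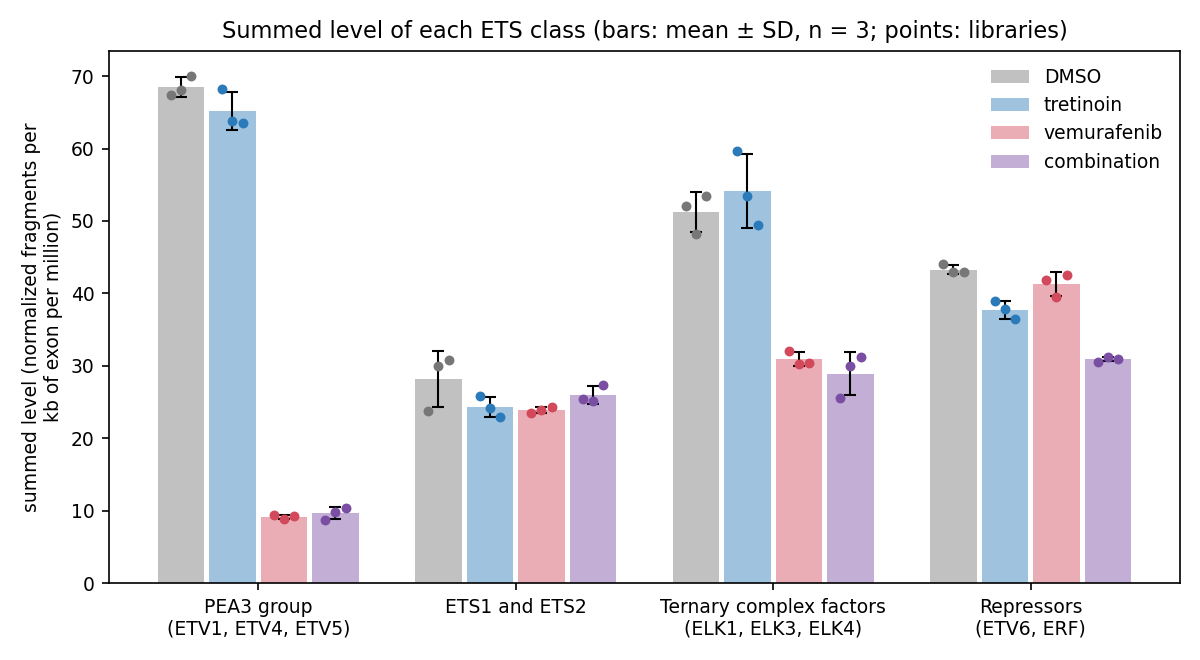
Summed level of each ETS class in each treatment group, in normalized FPKM, with bars for the mean, error bars for the SD and points for the 3 libraries. The PEA3 bars lie at 68.5 and 65.2 in DMSO and tretinoin and at 9.17 and 9.67 with vemurafenib and the combination, while the repressors lie at 43.3 in DMSO and 30.9 with the combination.

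Relative to DMSO, vemurafenib treatment was followed by lower transcript levels of 8 of the 10 members, led by the whole PEA3 group and ELK3. No member rose by edgeR with TMM scaling, by DESeq2 or at an unadjusted p under 0.05, and ETS2 and ERF did not pass in either direction. With total counts in place of TMM, edgeR called ETS2 higher (0.26, adjusted p = 0.0481). Of all genes tested, 26.3% were called lower and 26.4% higher at an adjusted p under 0.05 (edgeR's quasi-likelihood test, Benjamini-Hochberg adjustment over all 16740 genes). The median log2 fold change of the 10 members was -0.48, and that of all genes tested was 0.02. In bulk RNA, fewer cells expressing a gene and less of its RNA per cell cannot be told apart. The labels do not say that the replicates came from separate cultures, so p-values measure only the spread between these samples. Levels in the following are TMM-normalized counts, which correct for library size and composition but not for gene length, and are given in the order of replicates 1, 2 and 3.

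ETV5, a PEA3 activator, had 1284, 1382 and 1214 normalized counts in DMSO and 49.7, 53.0 and 48.9 with vemurafenib. The groups were far apart, and 3.91% of the DMSO mean remained. This was a log2 fold change of -4.67 (SE 0.135, adjusted p = 1.8e-14), or 25.5-fold lower, and only 12 of the 16740 genes tested had a more negative value. ETV4, the most abundant PEA3 member, had 3414, 3428 and 3644 normalized counts in DMSO and 526, 496 and 523 with vemurafenib. All vemurafenib libraries lay well below the lowest DMSO library, and ETV4 ranked number 81 from the most negative change. Its log2 fold change was -2.76 (SE 0.0784, adjusted p = 1.6e-14), or 6.79-fold lower. ETV1, the least abundant PEA3 member per length, had 477, 400 and 441 normalized counts in DMSO and 145, 131 and 135 with vemurafenib. Its groups did not overlap either, and ETV1 fell by 1.68 on the log2 scale (SE 0.115, adjusted p = 1.9e-09), or 3.21-fold. The 1.96 SE intervals of the 3 log2 changes, -4.93 to -4.41 for ETV5, -2.92 to -2.61 for ETV4 and -1.91 to -1.46 for ETV1, did not overlap. The differences between the responses of these 3 genes were not tested. All 3 PEA3 calls held under each of the 14 alternative settings. The exons of ETV4 share 1.89% of their bases with DHX8 on the opposite strand and those of ETV5 share 2.83% with DGKG on the same strand, and fragments that fell on both genes were not counted.

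**Figure D2:**
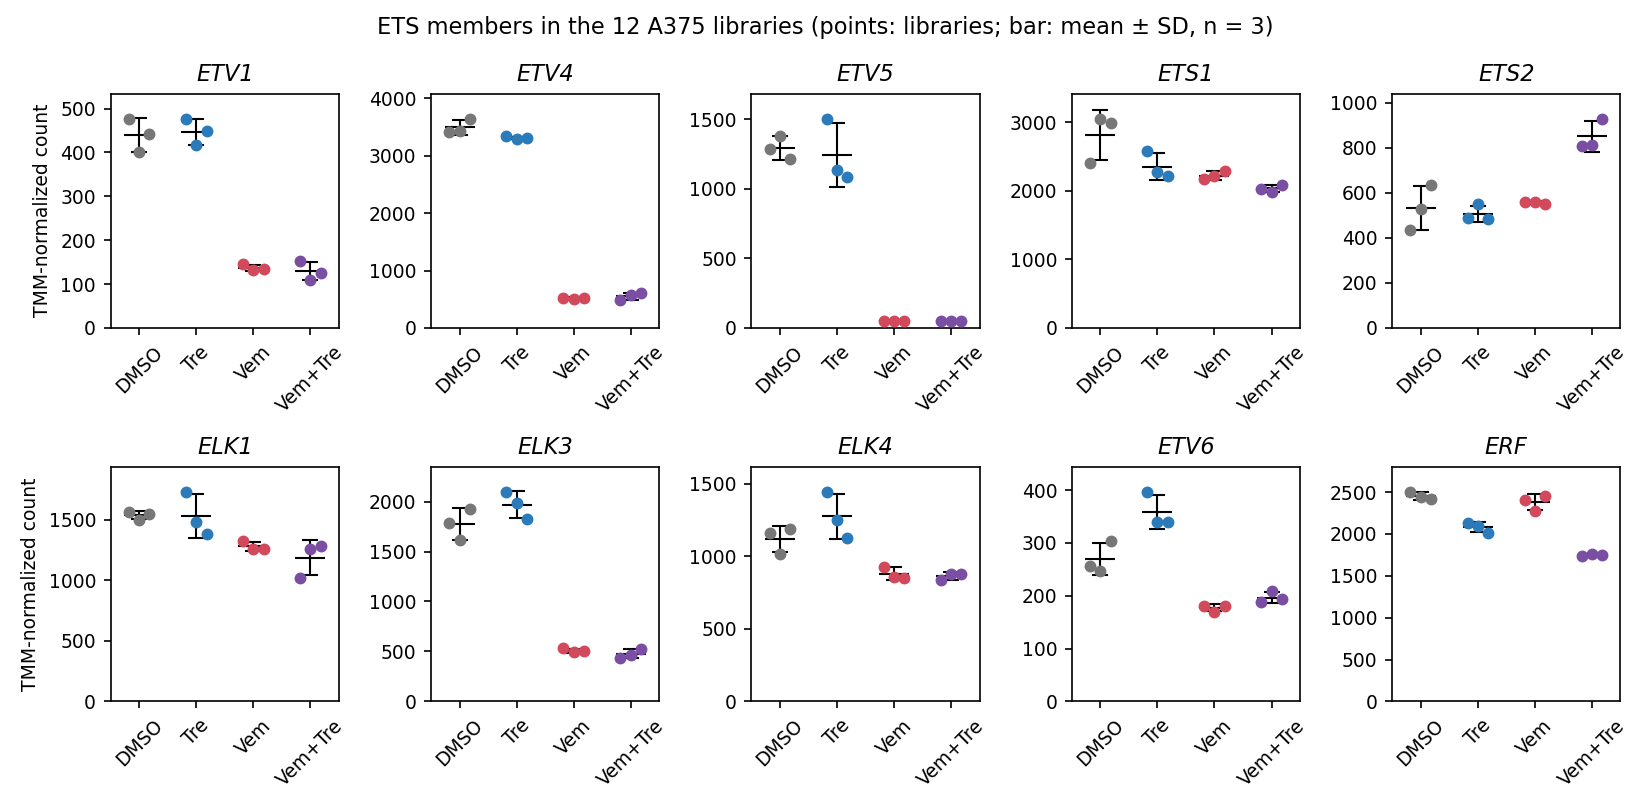
TMM-normalized counts of the 10 members in the 12 libraries, with points for libraries and bars for the mean ± SD (n = 3). In the vemurafenib and combination groups ETV1, ETV4, ETV5 and ELK3 lie far below DMSO and tretinoin, ETS2 is highest in the combination (809 to 930) and ERF is lowest there (1733 to 1762).

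Among the ternary complex factors, ELK3, which can act as a repressor until Ras signaling turns it into an activator, had 1785, 1611 and 1926 normalized counts in DMSO and 531, 491 and 504 with vemurafenib. The highest vemurafenib library was below the lowest DMSO library, and the change ranked number 215 from the most negative. ELK3 fell by 1.80 on the log2 scale (SE 0.0868, adjusted p = 1.8e-11), or 3.49-fold, under every alternative setting. ELK4, an SRF partner, had 1159, 1018 and 1186 normalized counts in DMSO and 930, 861 and 848 with vemurafenib. These groups did not overlap but were closer, at a log2 fold change of -0.35 (SE 0.0866, adjusted p = 0.00253). ELK1, the prototype ternary complex factor, had 1562, 1499 and 1544 normalized counts in DMSO and 1321, 1261 and 1258 with vemurafenib. The ELK1 groups did not overlap, and the log2 fold change was -0.26 (SE 0.0898, adjusted p = 0.0209). Unlike the ELK3 call, the other two depended on scaling: with total counts in place of TMM, which moved the median of all genes by 0.19 and the share of higher genes among those called from 50.1% to 71.4%, ELK4 was at -0.16 (adjusted p = 0.187) and ELK1 at -0.07 (adjusted p = 0.579). The ELK1 call was also lost at -0.25 without DMSO replicate 1 (adjusted p = 0.0522), vemurafenib replicate 2 (adjusted p = 0.0586) or vemurafenib replicate 3 (adjusted p = 0.0547).

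ETS1, an activator with a pointed domain that ERK docks to, had 2397, 3050 and 2992 normalized counts in DMSO and 2163, 2216 and 2282 with vemurafenib. The lowest DMSO library was only slightly above the highest vemurafenib library, and ETS1 fell by 0.34 on the log2 scale (SE 0.0846, adjusted p = 0.00257). With total counts alone it was at -0.14 (adjusted p = 0.154). ETS2, the closest relative of ETS1, had 437, 527 and 634 normalized counts in DMSO and 559, 561 and 552 with vemurafenib. The vemurafenib libraries lay inside the DMSO range, and the log2 difference of 0.06 (SE 0.108, adjusted p = 0.663) had an interval of -0.15 to 0.27. Without DMSO replicate 1 the difference was -0.07 (adjusted p = 0.604), and with total counts alone it was 0.26 (adjusted p = 0.0481). The difference between the responses of ETS1 and ETS2 was not tested.

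The repressor ETV6 had 257, 247 and 304 normalized counts in DMSO and 181, 170 and 181 with vemurafenib. The groups did not overlap, and ETV6 fell by 0.61 on the log2 scale (SE 0.108, adjusted p = 1.4e-04), or 1.53-fold, under every alternative setting. ERF, a repressor that ERK keeps out of the nucleus, had 2500, 2444 and 2412 normalized counts in DMSO and 2408, 2272 and 2453 with vemurafenib. These groups overlapped, with a log2 difference of -0.04 (SE 0.0595, adjusted p = 0.552) and an interval of -0.16 to 0.07, which changed direction to 0.15 (adjusted p = 0.0522) with total counts alone.

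**Figure D3:**
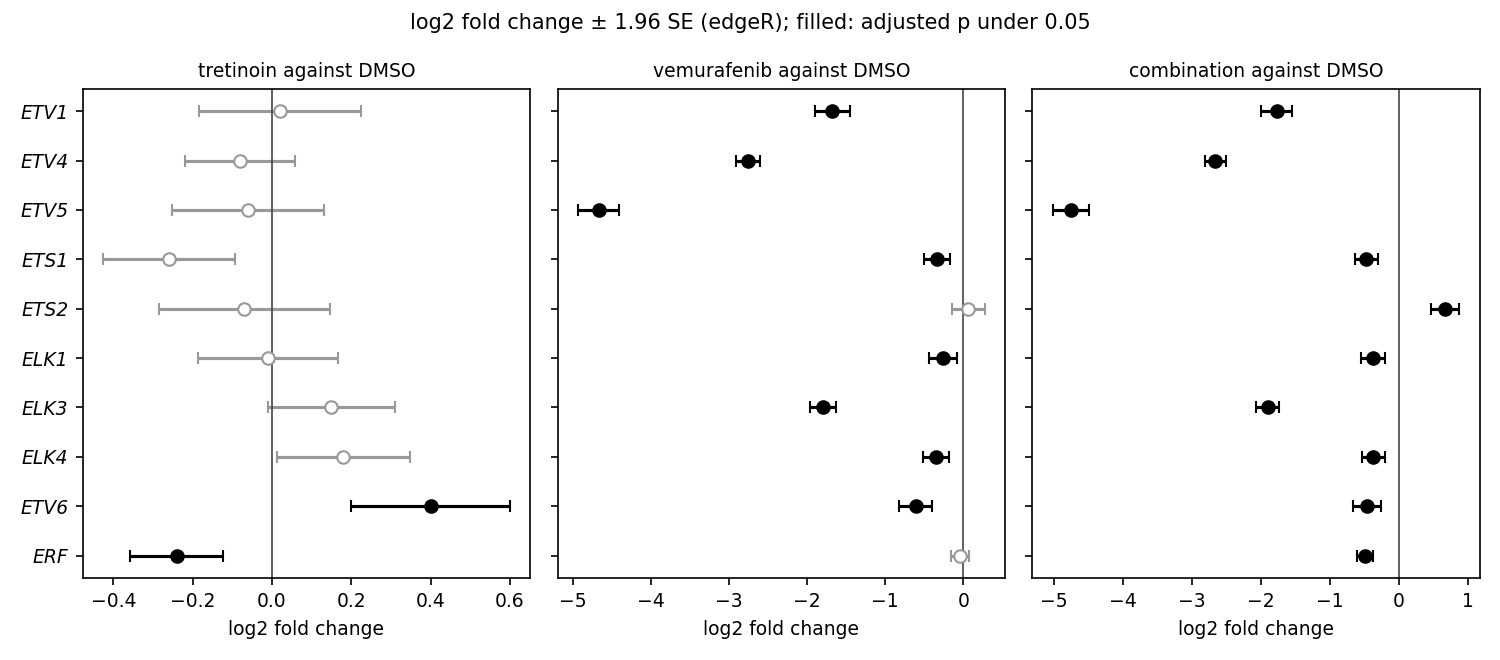
Log2 fold change of each member relative to DMSO with tretinoin, vemurafenib and the combination, with error bars of 1.96 SE and filled points for an adjusted p under 0.05 (the 3 horizontal scales differ). With vemurafenib ETV5 lies at -4.67 and ETV4 at -2.76, and with tretinoin only ETV6 at 0.40 and ERF at -0.24 are filled.

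Tretinoin alone was followed by few changes among the members. ETV6 rose and ERF fell, by 1.32-fold and 1.18-fold, and the other 8 members, all PEA3 genes and ternary complex factors included, did not pass the test. Of all genes tested, 3.48% were called higher and 2.2% lower, and the median log2 fold change was -0.03 for the members and 0.01 for all genes. ETV6 had 396, 340 and 339 normalized counts with tretinoin against 257, 247 and 304 in DMSO. Each tretinoin library was above each DMSO library, and the log2 fold change was 0.40 (SE 0.102, adjusted p = 0.0284). The ETV6 call was lost without tretinoin replicate 1 (0.33, adjusted p = 0.0822), without DMSO replicate 1 (0.37, adjusted p = 0.0801) and without DMSO replicate 2 (0.34, adjusted p = 0.138), and with only the 2 groups compared in the fit (0.41, adjusted p = 0.113). ERF had 2134, 2092 and 2013 normalized counts with tretinoin against 2500, 2444 and 2412 in DMSO. The groups did not overlap, and ERF fell by 0.24 on the log2 scale (SE 0.0599, adjusted p = 0.0267). Its call held without tretinoin replicate 1 (-0.26, adjusted p = 0.0101) but was lost without tretinoin replicate 2 (-0.24, adjusted p = 0.0654) or 3 (-0.22, adjusted p = 0.0598), without DMSO replicate 1 (-0.22, adjusted p = 0.0752), 2 (-0.24, adjusted p = 0.0865) or 3 (-0.25, adjusted p = 0.0561). It was also lost with total counts alone (-0.16, adjusted p = 0.131), with only the 2 groups compared (-0.23, adjusted p = 0.155) and with no low-count filter (-0.25, adjusted p = 0.0916).

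The PEA3 genes differed little between tretinoin and DMSO. ETV1 had 476, 417 and 448 normalized counts with tretinoin, inside the DMSO range, at a log2 difference of 0.02 (interval -0.18 to 0.22, adjusted p = 0.932). ETV5 had 1504, 1138 and 1081, a wider spread than in DMSO with its highest value in tretinoin replicate 1, at -0.06 (interval -0.25 to 0.13, adjusted p = 0.748). ETV4 had 3333, 3294 and 3298, all just below the lowest DMSO value of 3414, at -0.08 (interval -0.22 to 0.06, adjusted p = 0.539). ETS1, with 2574, 2273 and 2210 normalized counts, overlapped DMSO at -0.26 (SE 0.0847, adjusted p = 0.0826). That difference passed the test without DMSO replicate 1 (-0.36, adjusted p = 0.0124) or tretinoin replicate 1 (-0.33, adjusted p = 0.0113), by DESeq2 without or with a beta prior (adjusted p = 0.0441 and 0.0443) and with no low-count filter (adjusted p = 0.0472), 5 of 14 alternative settings in all. ETS2 had 489, 549 and 486 normalized counts with tretinoin, inside its DMSO range, at -0.07 (interval -0.29 to 0.14, adjusted p = 0.738). The ternary complex factors ELK1 (1727, 1482 and 1381), ELK3 (2094, 1985 and 1827) and ELK4 (1443, 1252 and 1130) overlapped DMSO, each highest in tretinoin replicate 1. Their log2 differences were -0.01 (adjusted p = 0.974), 0.15 (adjusted p = 0.289) and 0.18 (adjusted p = 0.211). Their intervals, unadjusted for the number of genes, were -0.18 to 0.17, -0.01 to 0.31 and 0.01 to 0.35.

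In the vemurafenib + tretinoin combination, all 10 members differed from DMSO, 9 lower and ETS2 higher. Of all genes tested, 26.5% were called lower and 27.1% higher, and the median log2 fold change was -0.48 for the members and 0.03 for all genes. ETV5 had 47.7, 47.9 and 48.3 normalized counts, or 3.71% of the DMSO mean, at a log2 fold change of -4.75 (SE 0.135, adjusted p = 1.4e-14). ETV4 had 482, 573 and 600, at -2.66 (SE 0.0775, adjusted p = 1.7e-14). ETV1 had 152, 110 and 126, at -1.77 (SE 0.115, adjusted p = 8.4e-10). These levels were all far below the DMSO and tretinoin libraries and close to those with vemurafenib alone. ELK3 had 436, 465 and 526 normalized counts and fell by 1.90 on the log2 scale (SE 0.0868, adjusted p = 7.9e-12). ELK4 (835, 878 and 882) and ELK1 (1018, 1257 and 1284) fell by 0.37 each (adjusted p = 0.00144 and 0.00213). With total counts alone, which moved the median of all genes by 0.16 and the share of higher genes among those called from 50.5% to 68.2%, both stood at -0.21 and did not pass (adjusted p = 0.0752 for ELK4 and 0.0798 for ELK1). The log2 fold changes of ETS1 (2028, 1985 and 2086), ETV6 (188, 208 and 193) and ERF (1733, 1762 and 1754) were -0.47 (adjusted p = 1.6e-04), -0.46 (adjusted p = 0.00139) and -0.49 (adjusted p = 2.5e-06). None of these groups overlapped DMSO. The calls of the 8 members other than ELK1 and ELK4 held under each alternative setting.

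The combination differed from vemurafenib alone in ETS2, which rose, and ERF, which fell, whereas the other 8 members did not pass the test. Of all genes tested, 2.27% were called higher and 2.2% lower, and the median was -0.08 for the members and 0.00 for all genes. ETS2 had 809, 813 and 930 normalized counts with the combination and 559, 561 and 552 with vemurafenib. The combination libraries were above every library of the other 3 groups, whose highest value was 634. The log2 fold change was 0.61 (SE 0.105, adjusted p = 0.00132), or 1.53-fold, and ranged from 0.54 to 0.65 over 14 alternative settings, all of them called. ERF had 1733, 1762 and 1754 normalized counts with the combination and 2408, 2272 and 2453 with vemurafenib. The combination libraries were the lowest of all 12, and ERF fell by 0.44 on the log2 scale (SE 0.0597, adjusted p = 1.3e-04), or 1.36-fold, with a range of -0.48 to -0.42 over the alternative settings, all called. The exons of ETS2 share no bases with another annotated gene, and those of ERF share 4.7% with AC006486.1, which had 0 counts.

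The 8 members that did not pass in that comparison all had intervals that included 0. ETV5 was at -0.08 (interval -0.44 to 0.29, adjusted p = 0.929), ETS1 at -0.13 (interval -0.29 to 0.04, adjusted p = 0.577) and ETV6 at 0.15 (interval -0.06 to 0.36, adjusted p = 0.624). ETV4 was at 0.10 (interval -0.05 to 0.26, adjusted p = 0.657), ETV1 at -0.09 (interval -0.34 to 0.16, adjusted p = 0.853) and ELK3 at -0.09 (interval -0.27 to 0.08, adjusted p = 0.751). ELK1 was at -0.11 (interval -0.28 to 0.07) and ELK4 at -0.02 (interval -0.19 to 0.15). A log2 change of -0.44 in ETV5, which had few counts in both groups, and smaller changes in the others lie within these intervals.

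Set against tretinoin alone, the combination again had 9 members lower and ETS2 higher, against 25% of all genes called lower and 24.1% called higher. The members' median was -0.71 and that of all genes 0.02. ETV5 had a log2 fold change of -4.69 (SE 0.135, adjusted p = 1.6e-14), ETV4 of -2.58 (SE 0.0774, adjusted p = 2.8e-14), ELK3 of -2.05 (SE 0.0869, adjusted p = 2.9e-12) and ETV1 of -1.79 (SE 0.115, adjusted p = 7.9e-10). ETV6, which was highest with tretinoin, fell by 0.86 (SE 0.103, adjusted p = 2.3e-06), from 339 to 396 normalized counts down to 188 to 208. ELK4 was at -0.56 (adjusted p = 3.9e-05), ELK1 at -0.36 (adjusted p = 0.00272) and ERF at -0.25 (adjusted p = 0.00224), whereas ETS2 rose by 0.74 (SE 0.106, adjusted p = 1.6e-05). ETS1 passed narrowly at -0.21 (SE 0.0849, adjusted p = 0.0498) and kept that call in 1 of 14 alternative settings, without tretinoin replicate 3 (-0.26, adjusted p = 0.0299). It was at -0.14 (adjusted p = 0.13) without tretinoin replicate 1, at -0.24 (adjusted p = 0.0511) without tretinoin replicate 2, and at -0.21, -0.20 and -0.24 (adjusted p = 0.0986, 0.118 and 0.0614) without combination replicate 1, 2 and 3. The other 9 calls held in every alternative setting.

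The drug interaction asks whether the log2 change that tretinoin brought in the presence of vemurafenib differed from the change that it brought without vemurafenib. It was called for ETS2 alone among the members, at 0.68 (SE 0.152, adjusted p = 0.042), where 0.382% of all genes tested were called higher and 0.424% lower. With tretinoin alone ETS2 was at 486 to 549 normalized counts against 437 to 634 in DMSO, and with vemurafenib present it went from 552 to 561 up to 809 to 930. The ETS2 interaction kept its sign in all 19 alternative settings, from 0.53 to 0.80, and passed the test in 8 of them, with adjusted p between 1.9e-04 and 0.123. It held without tretinoin replicate 1 (0.66, adjusted p = 0.0186). It was lost without DMSO replicate 2 or 3 (0.69 and 0.53, adjusted p = 0.1 and 0.0942), tretinoin replicate 3 (0.65, adjusted p = 0.0632), vemurafenib replicate 1, 2 or 3 (0.68, 0.68 and 0.67, adjusted p = 0.109, 0.123 and 0.0876) or combination replicate 1, 2 or 3 (0.72, 0.71 and 0.61, adjusted p = 0.0704, 0.0906 and 0.122), and with total counts alone (0.58, adjusted p = 0.0728). For ERF, which fell with tretinoin both with and without vemurafenib, the interaction was -0.20 (SE 0.0845, adjusted p = 0.27). The other 8 members had interactions between -0.25 (ETV6, adjusted p = 0.418) and 0.18 (ETV4, adjusted p = 0.412), none of which passed by edgeR or DESeq2. Without adjustment, ERF alone of these 9 members had a p under 0.05.

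**Figure D4:**
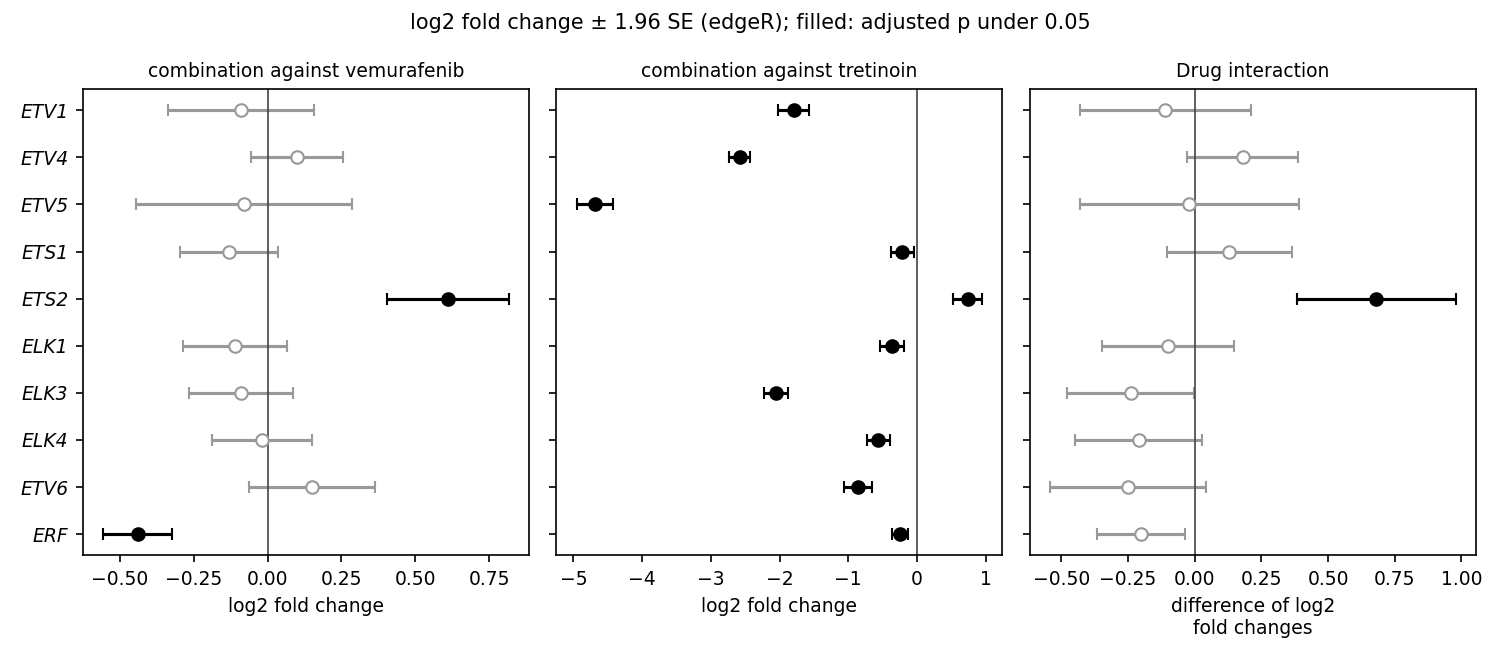
Log2 fold change of each member in the combination relative to vemurafenib and to tretinoin, and the drug interaction, the difference between 2 log2 fold changes, with error bars of 1.96 SE and filled points for an adjusted p under 0.05 (the 3 horizontal scales differ). ETS2 lies at 0.61 and ERF at -0.44 relative to vemurafenib, and in the interaction panel only ETS2, at 0.68, is filled.

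Genes around the members in the pathway were counted from lists chosen with earlier results of these data known. All 8 ERK output genes, which encode phosphatases, SPROUTY inhibitors and other products of ERK-driven transcription, fell with vemurafenib and with the combination. Of all genes tested, 26.3% were called lower with vemurafenib and 26.5% with the combination. SPRY4, a feedback inhibitor of receptor signaling, went from a mean of 1656 normalized counts in DMSO to 17.5 with vemurafenib (log2 fold change -6.55, SE 0.157, adjusted p = 2.3e-15). DUSP6, the phosphatase that switches ERK off, went from 2199 to 32.7 (-6.07, SE 0.130, adjusted p = 9.4e-16). The list's median log2 fold change with vemurafenib was -3.69. With tretinoin alone, PHLDA1 rose (0.45, adjusted p = 0.00179), whereas DUSP4 (-0.28, adjusted p = 0.0331) and CCND1 (-0.44, adjusted p = 0.0101) fell. Of all genes tested, 3.48% were called higher and 2.2% lower with tretinoin. The PHLDA1 call held in all 14 alternative settings, the CCND1 call in 12 and the DUSP4 call in 8. All 9 immediate early genes of the ternary complex factor and SRF list also fell with vemurafenib and with the combination, with a median of -1.72 for vemurafenib. Among them EGR2 was near the detection limit, with 6 to 12 raw counts per library in DMSO, 3 to 4 with vemurafenib and 1 to 5 with the combination. FOS was also low, at 40 to 54 raw counts in DMSO, 10 to 18 with vemurafenib and 6 to 13 with the combination. The vemurafenib and combination calls of FOS held in the 13 alternative settings that gave it a result. The vemurafenib call of EGR2 was lost without DMSO replicate 2 (-1.52, adjusted p = 0.0504). EGR1 went from 153 to 27.9 normalized counts (-2.46, SE 0.178, adjusted p = 3.7e-09), and MCL1, a survival factor, from 7958 to 3213 (-1.31, SE 0.0672, adjusted p = 4.3e-11). Of these 9 genes, EGR1, EGR3 and FOSB rose and JUNB fell with tretinoin alone, while the ternary complex factor transcripts themselves did not pass in that comparison. The JUNB call in that comparison was lost without DMSO replicate 2 (-0.32, adjusted p = 0.0979) and with only the 2 groups compared (-0.38, adjusted p = 0.103).

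In the combination relative to vemurafenib, 2 of the 8 ERK output genes rose, EPHA2 (0.84, SE 0.0860, adjusted p = 5.6e-06) and PHLDA1 (0.52, SE 0.0834, adjusted p = 7.5e-04), where 2.27% of all genes were called higher and 2.2% lower. None was called lower by edgeR, where 1 had an unadjusted p under 0.05 and DESeq2 called 1. DUSP6 (0.02, adjusted p = 0.985) and DUSP4 (-0.10, adjusted p = 0.675) did not pass, and neither did the 3 PEA3 genes. Of the 9 immediate early genes, EGR3 rose from 33.9 to 119 normalized counts (1.83, SE 0.179, adjusted p = 3.8e-06) and NR4A1 fell (-0.57, SE 0.0898, adjusted p = 5.4e-04). The drug interaction was called higher for EPHA2, EGR3 and JUNB, where 0.382% of all genes were called higher and 0.424% lower. It passed in all 19 alternative settings for EPHA2 (highest adjusted p = 0.0142), in 12 for JUNB (highest 0.0817) and in 7 for EGR3 (highest 0.164).

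Of 12 regulators and partners of the members, 5 rose and 2 fell with vemurafenib, where 26.4% of all genes were called higher and 26.3% lower, so the number called is near the background. In the same list 0 passed edgeR's test with tretinoin, where 4 had an unadjusted p under 0.05 and DESeq2 called 2. CIC, the repressor of PEA3 genes, had 1446 to 1681 normalized counts in DMSO and 2779 to 2969 with vemurafenib, a log2 fold change of 0.91 (SE 0.0809, adjusted p = 5.4e-08). In the combination CIC was lower than with vemurafenib (-0.32, SE 0.0793, adjusted p = 0.0228), a call lost without vemurafenib replicate 1 or 2 (-0.31 each, adjusted p = 0.101) and without combination replicate 1 (-0.30, adjusted p = 0.0912) or 2 (-0.29, adjusted p = 0.128). SRF, the DNA-binding partner of the ternary complex factors, had 1744 to 1997 normalized counts in DMSO and 1100 to 1181 with vemurafenib (-0.72, SE 0.0681, adjusted p = 1.2e-07). The coactivators of SRF, MRTFA and MRTFB, rose by 0.41 and 0.66 (adjusted p = 7.6e-04 and 0.00131), and MAPK3, which encodes an ERK kinase, rose by 0.46 (adjusted p = 2.0e-04). DET1 rose by 0.57 (adjusted p = 0.00149) and CUL4A fell by 0.46 (adjusted p = 5.6e-06), and both encode parts of the ubiquitin ligase in which COP1 works.

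Of 18 other ETS genes, 10 passed the filter and the other 8 had at most 14 counts in any library. With vemurafenib, 4 of the 10 rose (ELF1, ELF3, EHF and ERG) and 2 fell (FLI1 and ETV3), a share near the 26.4% of all genes called higher and 26.3% called lower. ERG was near the detection limit, with 0 to 8 raw counts per library in DMSO and 9 to 25 with vemurafenib. Its call held in the 12 alternative settings that gave it a result (highest adjusted p = 0.0411). EHF was also low, at 10 to 19 raw counts in DMSO and 19 to 38 with vemurafenib. ELF1 had 406 to 477 normalized counts in DMSO and 946 to 1035 with vemurafenib (1.19, SE 0.0836, adjusted p = 2.7e-09). ELF1 alone of these 10 genes had a called drug interaction, which was negative. It passed in 11 of 19 alternative settings (highest adjusted p = 0.125). ELF3, an epithelial ETS factor, was near the detection limit in DMSO, with 0 to 2 raw counts per library, and reached 19.8 to 21.2 normalized counts with tretinoin, 28.7 to 39.4 with vemurafenib and 275 to 362 with the combination. Each of the 3 drug groups differed from DMSO (adjusted p = 1.4e-04, 1.8e-07 and 1.3e-12), as did the combination from vemurafenib (3.19, SE 0.178, adjusted p = 2.4e-09). EHF (0.86, adjusted p = 0.0447) lost its vemurafenib call without vemurafenib replicate 1 (0.61, adjusted p = 0.205) or 3 (0.78, adjusted p = 0.109) and without DMSO replicate 1 (0.81, adjusted p = 0.106), 2 (0.74, adjusted p = 0.13) or 3 (1.04, adjusted p = 0.0506).

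**Figure D5:**
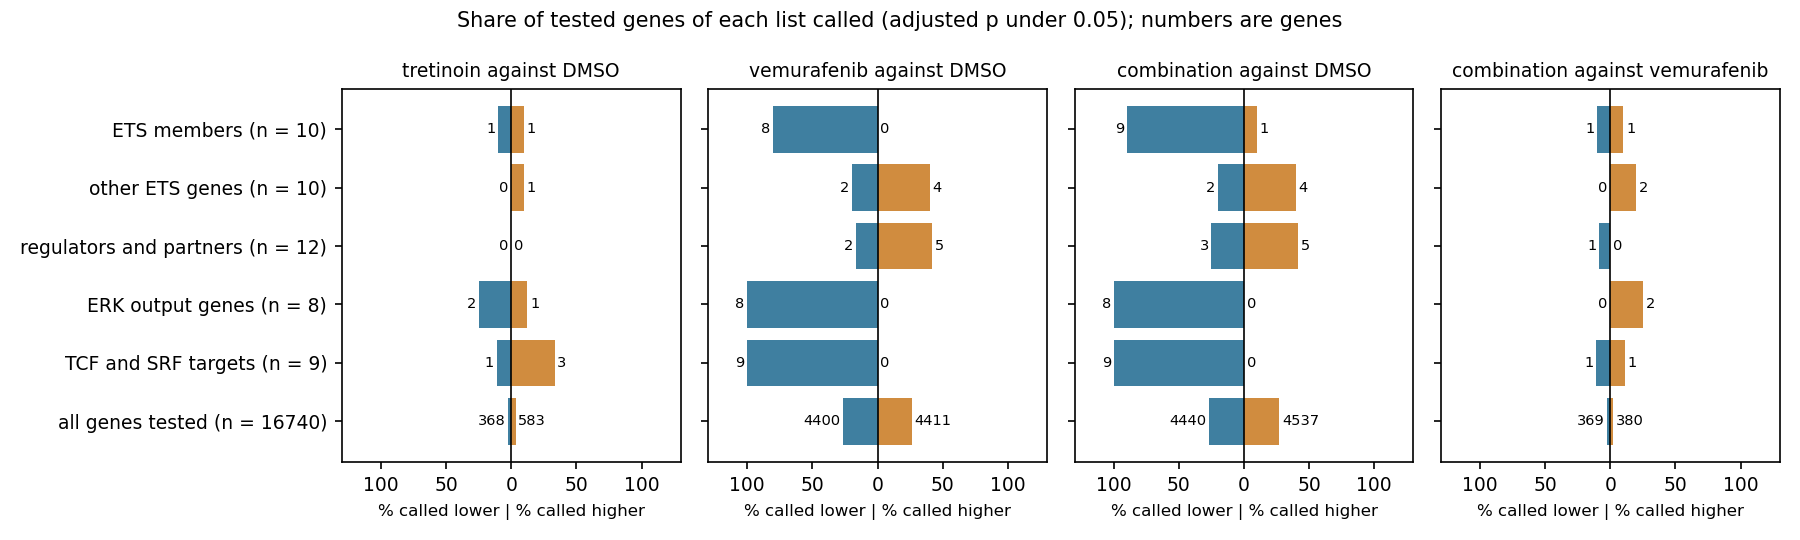
Share of the tested genes of each list that were called lower (left of 0, in percent) or higher (right of 0, in percent) in 4 comparisons, with the number of genes beside each bar. The ERK output and ternary complex factor target lists are called lower throughout with vemurafenib and the combination, as are 8 and 9 of the 10 members.

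The genes most like each PEA3 gene over the 12 libraries were found by the Euclidean distance of log2 CPM after subtraction of each gene's DMSO mean, among 10847 genes with a mean of at least 100 normalized counts. This distance rests largely on the vemurafenib response and is a description with no test. Nearest to ETV4 was UBASH3B (distance 0.436, log2 fold change with vemurafenib -2.75), followed by DUSP4 (0.540) and NEDD4L (0.558). ETV1 was nearest to HPCAL1 (0.551), AEN (0.570) and NIBAN2 (0.586), whose log2 fold changes with vemurafenib were -1.81, -1.87 and -1.79. ETV5 had more distant neighbors, FST (0.977), CCND1 (1.24) and SPRY2 (1.27), with changes of -4.69, -4.39 and -4.26. ETS2, added to this search after its values were seen, was nearest to MID1 (0.472), DDIT4 (0.493) and CDCA7L (0.498), which differed between the combination and vemurafenib by 0.40, 0.61 and 0.35.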

How the data were processed

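The authors deposited raw counts of paired-end fragments per gene for each library, made with STAR 2.5.3a on GRCh38.p10 and GENCODE 27 genes from poly(A)-selected RNA, counted in union mode with strand ignored. Counts were as deposited, with total counts per sample of 13510235 to 21534377. No raw reads were processed here. Of 58347 genes, 58084 matched GENCODE 29, used for symbols, positions and exon lengths.
Genes were filtered with filterByExpr, which left 16740, and TMM-normalized (factors 0.9012 to 1.074). All 12 samples entered a single quasi-likelihood fit by treatment group (edgeR 4.0.16 in R 4.3.3), from which 6 contrasts were drawn, with Benjamini-Hochberg adjustment over all genes within each and a threshold of 0.05. Each SE was derived from the test, as the absolute log2 fold change divided by the square root of the quasi-likelihood F statistic. Intervals are the log2 fold change plus and minus 1.96 of these SE. The pipeline was tested on simulated data. Alternatives were DESeq2's size factors or total counts alone, DESeq2 1.42.0 with and without a beta prior, no filter or a filter of 10 counts in every sample, a replicate block, only the groups compared, and each library left out.
By the rule for named genes, all members were reported, genes of the listed pathways were named where called, and the 5 nearest genes of each PEA3 member were taken. Members and lists were chosen with earlier results of these data known. Exon sequences were compared with blastn 2.17.0 (at least 150 bases at 98% identity), which found only the stretches of annotated overlap of ELK3, ELK4, ERF and ETV5. Other steps used Python 3.11.15.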

Additional observations from a re-analysis of the deposited data

Results flagged for a closer look

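ETS2 was singled out because the change that tretinoin brought differed with and without vemurafenib: the interaction was 0.68 on the log2 scale by edgeR's quasi-likelihood test (SE 0.152, adjusted p = 0.042). In the presence of vemurafenib ETS2 went from 557 ± 4.94 to 851 ± 68.8 normalized counts (mean ± SD, n = 3), and in its absence from 533 ± 98.8 to 508 ± 35.7. The interaction passed the test in 8 of 19 alternative settings, with values of 0.53 to 0.80 and adjusted p of 1.9e-04 to 0.123. The DMSO libraries had the widest spread of ETS2 among the 4 groups.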

How the results depend on the processing

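Over the members' log2 fold changes, 817 values under alternative settings kept the direction and the side of the threshold, 46 lost the call, 6 gained one and 21 changed direction. With tretinoin, 2 members were called, but 1 with total counts alone, 0 with the replicate block, 0 with only the 2 groups compared and 0 to 2 with single libraries left out. The interaction was called for 1 member, but for 0 with total counts alone, 0 with the replicate block and 0 to 1 with single libraries left out. The numbers of members called in the other 4 comparisons stayed within 1.5 times. With total counts alone, directions changed for ETV5 (0.02), ETS2 (0.00) and ELK1 (0.07) with tretinoin and for ERF (0.15) with vemurafenib. ELK1 with tretinoin was at 0.00 with at least 10 counts in every sample, and the ETV5 interaction at 0.02 without a filter and at 0.00 with the replicate block. Single libraries left out turned the direction of uncalled differences in ETV1 (-0.04 to 0.08), ETV5 (-0.22 to 0.03), ETS2 (-0.19 to 0.08) and ELK1 (-0.10 to 0.06) with tretinoin, in ETS2 with vemurafenib (-0.07 to 0.20), in ETV1 (-0.22 to 0.01) and ELK4 (-0.05 to 0.02) between the combination and vemurafenib, and in the ETV5 interaction (-0.11 to 0.14). The causes were not tested.

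Over all genes, tretinoin gave 951 calls, but 1540 without a filter, 305 with the 2 groups alone, 379 without DMSO replicate 2 and 619 without tretinoin replicate 2. The combination relative to vemurafenib gave 749, but 1269 with the 2 groups alone and 460 to 482 without vemurafenib replicate 1 or 2 or combination replicate 2 or 3. The interaction gave 135, but 276 and 280 by DESeq2, 610 without a filter, 75 with the replicate block, 265 without tretinoin replicate 1 and 60 to 88 without DMSO replicate 2, vemurafenib replicate 1 or 2 or any combination replicate. Scaling by total counts alone moved the median log2 fold change by 0.07 with tretinoin, 0.09 for the combination relative to tretinoin and -0.10 for the interaction. The share of higher genes among those called then went from 61.3% to 81.3%, from 49% to 60.7% and from 47.4% to 21.4%. The listed pathway genes kept their calls in 1446 values under alternative settings and lost them in 97, with no change of direction.

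Replicate numbers were not treated as pairs: the deviations of same-numbered libraries from their group means correlated at -0.13 to 0.076, with 0 of 18 pairs above 0.1. With the replicate block, adjusted p rose above the threshold for ETV6 (0.40, adjusted p = 0.0531) and ERF (-0.24, adjusted p = 0.0592) with tretinoin, ETS1 between the combination and tretinoin (-0.21, adjusted p = 0.0725), the ETS2 interaction (0.67, adjusted p = 0.065), EHF with vemurafenib (0.86, adjusted p = 0.0622) and CIC between the combination and vemurafenib (-0.32, adjusted p = 0.051). The block changed no other call of a member. The interaction has no fit with only 2 groups, since it needs all 4. With 3 libraries per group and at least 13510235 counted fragments each, precision was lowest for ETV5 once it had fallen (SE 0.187 between the combination and vemurafenib).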
